A study of Homo sapiens with 8 samples.

Results

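H3K27me3 is the histone mark that the Polycomb complex PRC2 writes on silenced chromatin, and it forms broad domains over developmental genes and fainter cover between genes. A domain has a strongly marked interior and weaker borders, and peak callers draw those borders where the signal meets a threshold. The regions described here are stretches of the autosomes (chromosomes 1 to 22) that lay inside peaks of this mark in each DMSO library but in no AC220 library, as intervals of at least 500 bp. There were 9284 of them, with 8.06 Mb in all. They were chosen from the peak positions of the same 4 libraries, so their number, length and cover are a description and carry no test.

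MOLM14 is a human cell line from acute myeloid leukaemia that carries an internal tandem duplication of the receptor tyrosine kinase FLT3, and AC220 (quizartinib) inhibits that kinase. All libraries came from this 1 line, treated for 24 h with AC220 or with its solvent DMSO, and all received Drosophila S2 cells before lysis as a reference. No scaling factor from those cells was used here, and no source used here says whether the deposited lists were scaled by one, so differences in cover between DMSO and AC220 are those of the lists as deposited. Of the 8 samples, 4 are immunoprecipitated libraries with a deposited peak list, DMSO 1, DMSO 2, AC220 1 and AC220 2. The remaining 4 are inputs and were not used. The labels do not say that libraries of 1 treatment came from separate cultures, and they give no dose of AC220.

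The lists differed in length before any comparison. On the autosomes DMSO 1 covered 231 Mb, AC220 1 covered 191 Mb, DMSO 2 covered 586 Mb and AC220 2 covered 494 Mb. The DMSO list was the longer within each number, so treatment and list length cannot be told apart from these lists. Read depth is unknown, because the lists hold no counts. The pairs that share neither treatment nor number, DMSO 1 with AC220 2 and DMSO 2 with AC220 1, were taken through the same rule and are called the crossed pairs. They are a reference measured in the same lists, not a level without effect.

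In the lists as deposited, DMSO-only stretches outnumbered those of either crossed pair. Cutting the covered autosomes wherever any library began or ended a peak gave 437666 stretches of at least 500 bp, of which the 9284 DMSO-only stretches were 2.12%. The stretches covered only in DMSO 1 and AC220 2 numbered 3404 (0.778%), and those covered only in DMSO 2 and AC220 1 numbered 4161 (0.951%). The reverse treatment pair, covered in each AC220 library but in no DMSO library, gave 2436 (0.557%). The DMSO-only number was 2.45 times the mean of the crossed pairs. Of all bases that the DMSO lists share, 5.32% lay in no AC220 peak, against 2.21% and 3.08% for the crossed pairs. The excess was smaller when the lists were made comparable in length by dropping the peaks with the weakest q-values. With each DMSO list cut down to the covered length of the AC220 list of its number, the ratio to the crossed pairs was 1.29, and with all 4 lists at 1 length it was 1.14. In the first trimming 4449 DMSO-only stretches stood against 3171 and 3752 in the crossed pairs. In the second, 5258 stood against 3924 for DMSO 2 with AC220 1 and 5311 for DMSO 1 with AC220 2, so DMSO-only stretches were then fewer than in that crossed pair. AC220-only stretches outnumbered DMSO-only ones in both trimmings, at 5468 in the first and 5540 in the second. The first trimming removes DMSO cover alone. In the second, DMSO 2 kept 10669 of its 115581 peaks and AC220 2 kept 16287 of 138045. DMSO 1 kept 66872 of 104396, and AC220 1 kept all 104089. The lists then matched in covered length but not in number of peaks.

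DMSO-only stretches were short. The median length was 804 bp, the quartiles were 631 and 1008 bp, and the longest was 3437 bp. The median was 742 bp in the crossed pair of DMSO 1 and AC220 2 and 731 bp in that of DMSO 2 and AC220 1. The ratio to the mean of the crossed pairs was higher in each longer class. It was 1.58 below 200 bp, 2.01 from 500 to 749 bp, 2.68 from 750 to 999 bp, 3.21 from 1000 to 1499 bp and 3.69 from 1500 to 1999 bp. At 2000 bp or more there were 89 DMSO-only stretches against 16 and 10 in the crossed pairs, too few there to fix a ratio. Taking all of at least 1 kb, the ratio was 3.33 as deposited, and 1.45 and 1.34 under the 2 trimmings. The minimum length fell in the middle of a steep slope of numbers: 932 stretches measured 500 to 549 bp and another 1043 measured 450 to 499 bp and were not members. Just inside the minimum, 14 members measured exactly 500 bp, among them stretches in 1p31.1, 1q41 and 12q24.32. Just outside it, 22 intervals measured 499 bp, among them intervals on chromosomes 10 and 11.

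**Figure D1:**
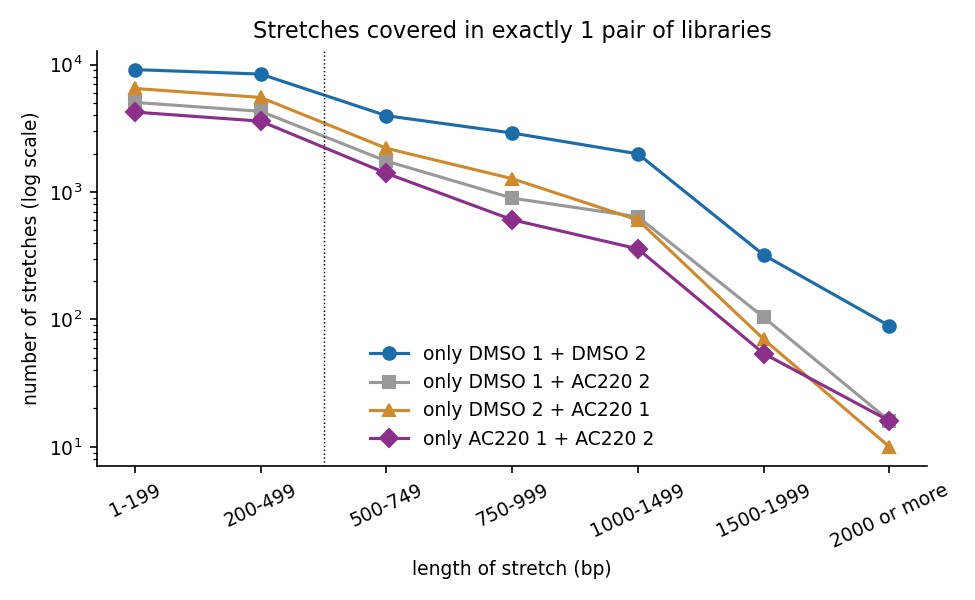
Number of stretches covered in exactly 1 pair of libraries (log scale) by length class in bp, with points for the DMSO pair, the AC220 pair and the crossed pairs. The dotted line marks the 500 bp minimum. The DMSO-only points lie above the others in every class, from 9140 below 200 bp to 89 at 2000 bp or more.

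Each stretch was then placed relative to the intervals covered in all 4 libraries, here called the core, which stand for the domains that both treatments share. A stretch was an edge when core lay within 5 kb on 1 side, a gap when it lay within 5 kb on both sides, and isolated when the nearest core was over 5 kb away. Edges numbered 3729 (40.2%), gaps 1799 (19.4%) and isolated stretches 3756 (40.5%). The crossed pairs gave nearly the same division: 41.4% edges, 18.9% gaps and 39.7% isolated for DMSO 1 with AC220 2, and 41.1%, 20.3% and 38.5% for DMSO 2 with AC220 1. Against the mean number of the crossed pairs the edges were 2.39 times, the gaps 2.41 times and the isolated stretches 2.54 times as many. Each class was thus more numerous than in the crossed pairs, at a similar share, and no test of the division was made. The shares moved under the trimmings, which change the stretches and the core together: with each DMSO list at its AC220 length, 46.7% were edges and 29.2% isolated, and with all lists at 1 length, 26.7% and 68.4%.

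**Figure D2:**
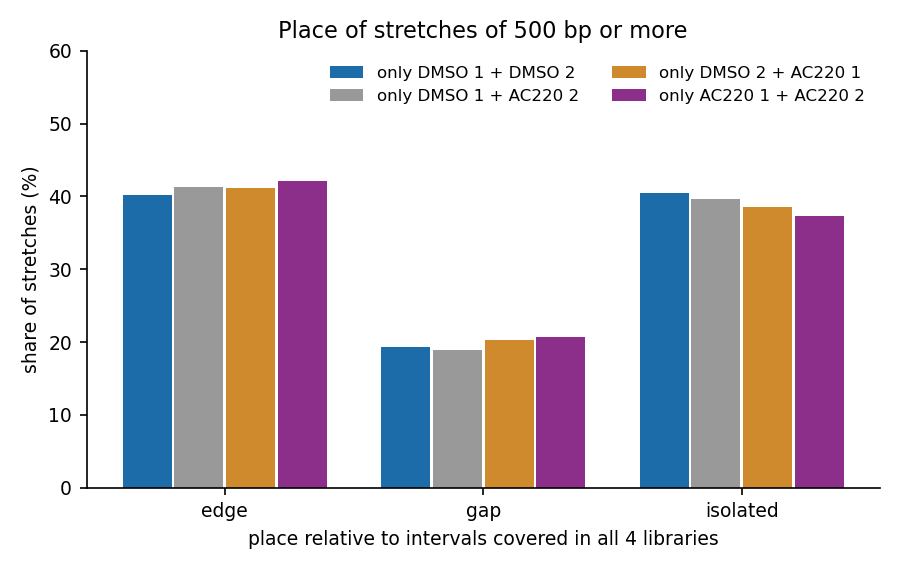
Share of stretches of 500 bp or more (%) that were edges of, gaps inside or isolated from intervals covered in all 4 libraries, with a bar for each pair of libraries. The bars of the 4 pairs differ little: edges range from 40.2% to 42.1%, gaps from 18.9% to 20.6% and isolated stretches from 37.3% to 40.5%.

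The nearest core lay at a median of 3076.5 bp, against 3079.5 and 2883 bp in the crossed pairs. Only 7 of the 9284 stretches touched it, against 3 of 3404 and 5 of 4161, since contact needs both lists without cover to begin or end a peak at the same base. Core lay within 500 bp of 22.8% of the DMSO-only stretches, against 20.1% and 22.8% in the crossed pairs. It lay over 50 kb from 721 (7.77%), against 5.64% and 6.42%. The share of cores with a DMSO-only stretch beside them was lower in each wider class of core, in counts that carry no test. Of 40531 cores under 1 kb, 12.6% had one within 5 kb, against 4.56% and 6.20% for the crossed pairs. Of 948 cores of 10 to 20 kb, 51 (5.38%) had one, against 2.74% and 3.06%. Of the 161 cores of 20 kb or more, 8 (4.97%) had one within 5 kb, against 2 (1.24%) and 1 (0.621%) for the crossed pairs. The ratio to the crossed mean was 2.34 for the narrowest cores, 1.85 for those of 10 to 20 kb and 5.33 for the widest, the last from these few counts.

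The classes differed in the peaks they belonged to. Gap stretches had a median length of 895 bp and lay in the widest peaks, with a median of 3119 bp for the DMSO 1 peak and 20749 bp for the DMSO 2 peak. Edges had a median length of 795 bp, in peaks of 1874 and 10718 bp. Isolated stretches had a median length of 780 bp, in peaks of 1123.5 and 4625 bp. The authors' fold over background, a value of each peak within its own list, followed the same order. The median DMSO 2 peak ranked at the 89.1 percentile of its list for gaps, 79.7 for edges and 56.1 for isolated stretches, and the DMSO 1 peak at 55.9, 44.7 and 32.2. The hole in the AC220 2 list around the stretch had a median of 1256 bp for gaps, 1837 bp for edges and 3812 bp for isolated stretches. In AC220 1 it was 3254, 10637 and 32965 bp. The class rule itself, which asks for core near a gap and none near an isolated stretch, bears on the order of these holes. Core is also cover in both DMSO lists, so the rule bears on the order of peak widths and fold ranks too. None of these orders was tested apart from the rule.

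The boundaries of the DMSO-only stretches were set mainly by the lists of DMSO 1 and AC220 2. Of the 18568 ends, 45.0% were where a DMSO 1 peak stopped and 40.0% where an AC220 2 peak began. A DMSO 2 peak stopped at 7.78% and an AC220 1 peak began at 7.37%. In the crossed pair of DMSO 2 and AC220 1, the short list likewise set 51.2% of ends (AC220 1) and the long list without cover 33.6% (AC220 2). In that of DMSO 1 and AC220 2, a DMSO 1 peak stopped at 43.3% of ends and a DMSO 2 peak began at 31.1%. A DMSO-only stretch was bounded by AC220 2 peaks on both sides in 1146 cases (12.3%) and on 1 side in 5127 (55.2%). The dependence on these lists also appears when a library is left out. Without DMSO 1 the rule gives 104963 stretches and without AC220 2 it gives 67894, while without DMSO 2 it gives 14101 and without AC220 1 it gives 10869.

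Most stretches were parts of peaks that AC220 also covered elsewhere. The stretch took a median of 55.1% of its DMSO 1 peak and 9.59% of its DMSO 2 peak. The DMSO 1 peak overlapped an AC220 2 peak at another place in 74.3% of cases and an AC220 1 peak in 38.4%. In 2217 cases (23.9%) no AC220 peak of either library touched the DMSO 1 peak, against 27.7% for the DMSO 1 peaks of the crossed pair with AC220 2. A whole DMSO 1 peak made the stretch in 1668 cases (18.0%), and a whole DMSO 2 peak in 56 (0.603%).

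AC220 2 peaks lay close to nearly all stretches and AC220 1 peaks to fewer. The nearest AC220 2 peak was at a median of 0 bp and within 1 kb of 89.8%, and over 10 kb away from 88 stretches (0.948%). The nearest AC220 1 peak was at a median of 1379 bp, within 1 kb of 43.5%, and over 10 kb away from 1380 stretches (14.9%). The hole between AC220 2 peaks was at most 1500 bp for 3599 stretches (38.8%). No list has peaks closer than 809 bp, and in AC220 2 the shortest gap was 893 bp, so narrower breaks could not be seen. Joining peaks up to 1500 bp apart in every list left 6553 stretches and a ratio to the crossed pairs of 2.08.

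The peaks that held the stretches were weaker than the median peak of the list in DMSO 1 and stronger than it in DMSO 2. They were also wider, with a median of 1574 bp against 1214 bp for all DMSO 1 peaks and 8631.5 bp against 2348 bp in DMSO 2. In the crossed pairs the DMSO 1 and DMSO 2 peaks had medians of 1405 and 8173 bp. The part of width in these ranks was not tested. By the authors' fold the median holding peak ranked at the 41.3 percentile of the DMSO 1 list and the 73.0 percentile of the DMSO 2 list. The authors' fold had a median of 2.80 for the DMSO 1 peaks holding stretches and 2.85 for all DMSO 1 peaks, and in DMSO 2 it was 2.27 against 2.10. In DMSO 1, 92.3% of stretches lay in a peak with a -log10 q under 2, against 83.5% of all listed peaks. In DMSO 2 it was 36.4% against 63.9%. These shares and the medians of holding peaks count a peak once for each stretch in it. The 9284 stretches lay in 9092 distinct DMSO 1 peaks and 8341 distinct DMSO 2 peaks. The DMSO 1 peaks of the crossed pair had a median fold of 2.79, and the DMSO 2 peaks of the other crossed pair 2.26. Within each list the median folds of the peaks that held DMSO-only and crossed stretches thus lay close together. With only peaks of -log10 q of at least 2 in all lists, the rule gave 1508 DMSO-only stretches, and with at least 3 it gave 98.

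Outside the stretches both treatments had peaks. At 1 kb from the ends, 72.4% of positions lay in DMSO 2 peaks, 56.9% in AC220 2 peaks, 22.8% in DMSO 1 peaks and 16.4% in AC220 1 peaks. At 10 kb the values were 56.8%, 46.2%, 22.8% and 17.0%. At 100 kb they were 44.4%, 35.7%, 18.5% and 13.2%, still above the autosomal shares of 20.3%, 17.1%, 8.02% and 6.64%. DMSO cover exceeded AC220 cover of the same number at every distance measured. Around the stretches of DMSO 2 and AC220 1, the values at 10 kb were 55.2% in DMSO 2, 48.1% in AC220 2, 22.3% in DMSO 1 and 18.6% in AC220 1. Around those of DMSO 1 and AC220 2 they were 51.9%, 47.3%, 23.8% and 19.9% in the same order of libraries.

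**Figure D3:**
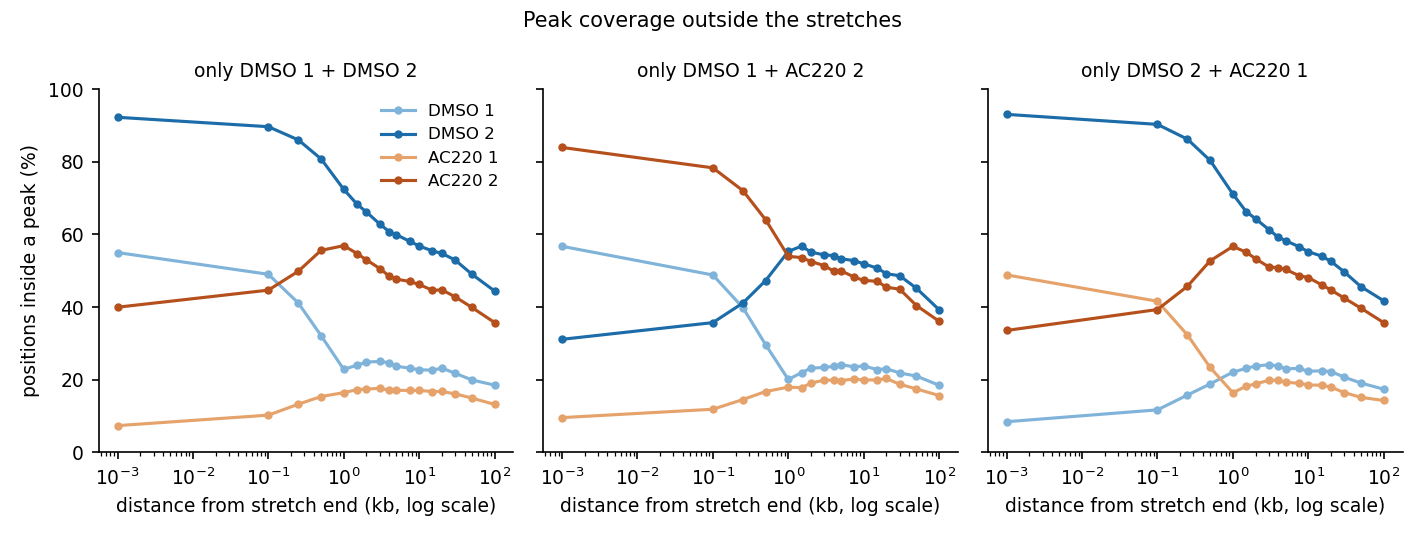
Share of positions inside a peak (%) against distance from the stretch end (kb, log scale) in each of the 4 libraries, for DMSO-only stretches and each crossed pair. Around DMSO-only stretches AC220 2 rises from 40.0% at the first base outside to 56.9% at 1 kb while DMSO 1 falls from 55.0% to 22.8%.

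The longest stretches came from several chromosomes and from each class. Positions are those of the deposited lists, which name no build and whose peaks all end within the GRCh37 chromosome lengths. The longest, 3437 bp, was isolated, in 2p24.2 (chromosome 2, 18596957 to 18600393). It was part of a 3766 bp peak in DMSO 1 and a 12072 bp peak in DMSO 2, and over the 5 kb on either side DMSO 2 was covered for 88.5%, AC220 2 for 70.2%, DMSO 1 for 17.6% and AC220 1 for 0%. The AC220 2 list thus had a hole of 5049 bp in a largely covered area.

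An isolated stretch of 3146 bp lay in 8q11.23 (chromosome 8, 54147338 to 54150483), with AC220 2 covered over 11.7% of the 5 kb sides and DMSO 2 over 44.5%. One of 2978 bp in 3p14.2 (chromosome 3, 62871232 to 62874209) made up most of a 3156 bp DMSO 1 peak and a 3687 bp DMSO 2 peak, with the nearest AC220 2 peak at 3346 bp and the nearest AC220 1 peak at 13754 bp. Of the 10 longest, this was the only one that no AC220 2 peak adjoined. Other isolated stretches were one of 2875 bp in 6q27 (chromosome 6, 168893760 to 168896634), inside a 39955 bp DMSO 2 peak, and one of 2840 bp in 8p23.2 (chromosome 8, 4882143 to 4884982).

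Among the gaps, the longest measured 3138 bp in 8p23.1 (chromosome 8, 12282127 to 12285264). Core lay 79 bp to its left and 29 bp to its right, and the authors' fold of its peaks was high in both lists, at 3.10 in DMSO 1 (81.2 percentile) and 2.81 in DMSO 2 (96.1 percentile). A gap of 2854 bp in 17q24.3 (chromosome 17, 70456071 to 70458924) sat in an area where DMSO 2 and AC220 2 covered 100% of the 5 kb sides and AC220 1 covered 83.1%. Gaps of 2832 bp in 8p11.21 (chromosome 8, 40161933 to 40164764) and 2812 bp in 6p21.1 (chromosome 6, 40775545 to 40778356) had AC220 2 cover of 84.3% and 60.5% on their sides. In each of these 4 gaps AC220 2 peaks adjoined both ends, so the stretch was the entire hole in that list.

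The longest edge stretch measured 2915 bp in 1q43 (chromosome 1, 237350043 to 237352957), with core 813 bp away on 1 side and 25572 bp away on the other. The next edges were one of 2779 bp in 7q22.2 (chromosome 7, 104112508 to 104115286) and one of 2770 bp in 8q21.3 (chromosome 8, 91313816 to 91316585). In 7q22.2 an AC220 1 peak adjoined the stretch, the only case among these named. In 8q21.3 core lay 4949 bp away, just inside the 5 kb limit. For scale, the 3 longest stretches of DMSO 1 with AC220 2 measured 2746 bp (16q12.1), 2394 bp (1q23.3) and 2341 bp (4p16.1), and those of DMSO 2 with AC220 1 measured 2756 bp (5q33.3), 2691 bp (14q11.2) and 2440 bp (7q34).

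DMSO-only stretches lay on every autosome, at unequal density. Their number exceeded that of either crossed pair on 21 of 22 chromosomes. Chromosome 22 was the exception, with 69 against 77 and 57. Chromosome 8 had the highest density, at 5.39 per Mb against 1.28 and 1.39 in the crossed pairs, followed by chromosome 10 at 4.47 and chromosome 6 at 4.37 per Mb. The lowest was chromosome 21 at 0.935 per Mb. Density also depends on how much of a chromosome is covered. Of bases covered in both DMSO lists, the DMSO-only share was 5.89% on chromosome 8, 4.05% on chromosome 10 and 5.28% on chromosome 6. On all autosomes that share was 5.32%, and it was highest on chromosome 4, at 7.98%. Against the mean of the crossed pairs, the numbers were 4.05 times as high on chromosome 8, 3.92 on chromosome 13 and 3.90 on chromosome 6, and 1.18 on chromosome 21 and 1.03 on chromosome 22. With each DMSO list at its AC220 length, chromosome 8 had 2.65 times, chromosome 6 had 2.35 times and chromosome 13 had 1.96 times the crossed mean, while chromosome 22 had 0.504 times. With all lists at 1 length these values were 2.01, 1.88, 1.58 and 0.444. The number then exceeded that of both crossed pairs on 10 chromosomes in the first trimming and on 7 in the second. The copy number of chromosomes in these cells was not analysed here.

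**Figure D4:**
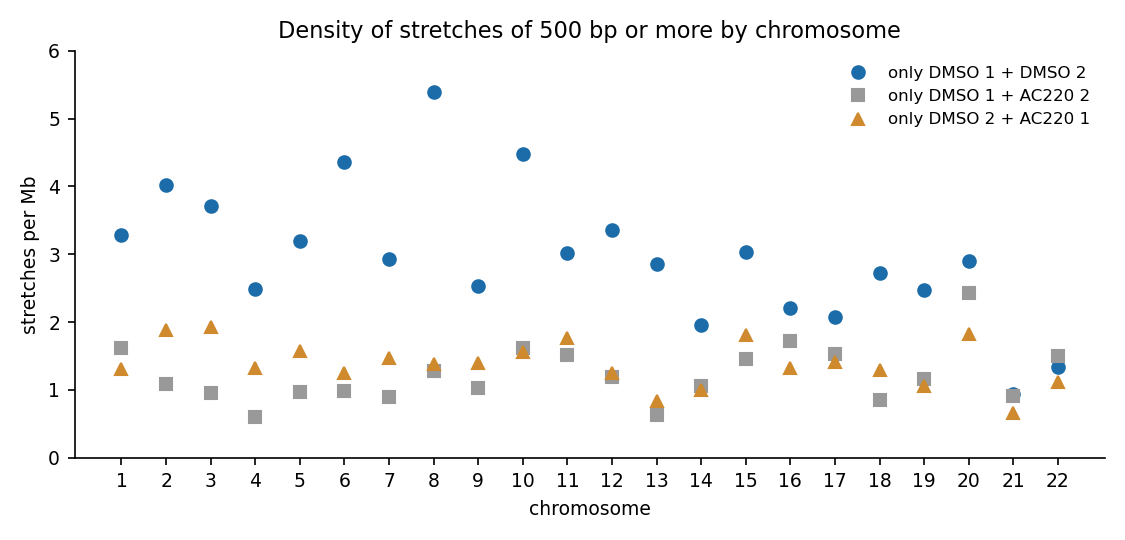
Stretches of 500 bp or more per Mb on each autosome, with points for DMSO-only stretches and for each crossed pair. DMSO-only density is highest on chromosome 8 (5.39 per Mb) and is close to the crossed pairs on chromosomes 21 and 22.

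Giemsa bands separate gene-rich unstained chromatin from gene-poor, AT-rich dark chromatin. Unstained bands held 4311 DMSO-only stretches (46.4%) and the darkest bands 1070 (11.5%), whereas 58.6% of core bases lay in unstained bands and 4.95% in the darkest. Of bases covered in both DMSO libraries, 4.44% were DMSO-only in unstained bands, 4.29% in the lightest grey, 5.77% in mid grey, 7.60% in dark grey and 9.57% in the darkest. The share was 9.95% in variable bands, with 90 stretches, 80 of them in the band 19q12, and 6.90% in centromeric bands, with 42. For DMSO 1 with AC220 2 the share was 2.25% in unstained and 1.95% in the darkest bands, and for DMSO 2 with AC220 1 it was 2.71% and 4.92%. The ratio of numbers to the crossed mean was 2.14 in unstained and 4.05 in the darkest bands, and it was 1.17 and 1.84 with DMSO lists at AC220 length, and 1.02 and 1.79 with all lists at 1 length. In the darkest bands 54.4% of the stretches were isolated, against 36.7% in unstained bands, where core was denser.

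Of 774 bands of at least 1 Mb, 694 held a DMSO-only stretch, and 493 (63.7%) held more of them than of either crossed pair, while 37 held fewer than both. The highest numbers were 80 in 19q12 (crossed pairs 7 and 14), 78 in 1q41 (8 and 20), 71 in 2q33.3 (5 and 12), 68 in 8q24.22 (9 and 11) and 66 in 11q25 (32 and 17). Their standing depended on the trimming. With each DMSO list at its AC220 length, all of them still held more than either crossed pair. The numbers were 47 in 19q12 (15 and 15), 43 in 1q41 (11 and 22) and 33 in 2q33.3 (7 and 11). There were 44 in 8q24.22 (11 and 11) and 40 in 11q25 (28 and 18). With all lists at 1 length, 1q41 held 53 (23 and 27) and 8q24.22 held 30 (15 and 10). In that setting 2q33.3 held 16 (7 and 13), 19q12 held 25 (24 and 13) and 11q25 held 38 (64 and 30). The band 12q24.21, where textbook maps place the limb and heart regulators TBX5 and TBX3, held 44 against 3 and 6, 31 against 5 and 7 with DMSO lists at AC220 length, and 51 against 10 and 17 with all lists at 1 length. The band 8q24.12 held 52 against 2 and 5, 32 against 6 and 5 with DMSO lists at AC220 length, and 37 against 4 and 14 with all lists at 1 length.

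Bands known for genes of Polycomb biology, leukaemia and myeloid differentiation were read the same way, without placing any stretch on a gene. Of 18 such bands, 12 (66.7%) held more DMSO-only stretches than either crossed pair and 0 held fewer than both, a share near the 63.7% of all bands. The bands of the 4 HOX clusters, which encode body-patterning transcription factors and are classic Polycomb targets, held 39 DMSO-only stretches against 14 and 36 in the crossed pairs and 20 AC220-only. By cluster these were 2 (crossed pairs 0 and 5) in 7p15.2, the band of HOXA, and 7 (2 and 3) in 17q21.32, that of HOXB. There were 10 (8 and 6) in 12q13.13, the band of HOXC, and 20 (4 and 22) in 2q31.1, that of HOXD. The HOXC band held 12 AC220-only stretches. In 10q24.31, the band of the kidney and eye regulator PAX2, there were 2 (2 and 0), although the core there came to 0.444 Mb. Higher numbers lay in 2p14, with 31 (6 and 17), and in 8q24.21, with 27 (4 and 7). Textbook maps place the homeobox gene MEIS1, a cofactor of HOX proteins in leukaemia, in the first and the proliferation gene MYC in the second. With DMSO lists at AC220 length 2p14 held 14 (4 and 16) and 8q24.21 held 14 (4 and 7), beside 10 AC220-only stretches in each. With all lists at 1 length 2p14 held 9 (15 and 9) and 8q24.21 held 34 (9 and 20). Against the crossed mean 8q24.21 had 4.91 times as many as deposited, and 2.55 and 2.34 times under the trimmings. All of chromosome 8 had 4.05, 2.65 and 2.01 times. As deposited, 8q24.21 also held 7 AC220-only stretches and 2p14 held 3. The band of the macrophage growth factor receptor gene CSF1R, 5q32, held 31 (9 and 17). The bands of the myeloid regulators CEBPA (19q13.11) and SPI1 (11p11.2) held 14 (8 and 5) and 12 (7 and 8). There were 9 (0 and 1) in 9p21.3, where textbook maps place CDKN2A, a brake on the cell cycle. Cover common to both DMSO lists in that band came to only 0.0926 Mb. The band of FLT3 (13q12.2) held 1 (1 and 1), that of the PRC2 enzyme gene EZH2 (7q36.1) held 17 (13 and 4), and those of the monocyte genes CD14 (5q31.3) and ITGAM (16p11.2) held 5 (5 and 8) and 2 (6 and 2). The bands of the very long neural genes CSMD1 (8p23.2) and CNTNAP2 (7q35) held 14 (2 and 5) and 10 (3 and 4).

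Stretches often lay in runs along a chromosome. Joining stretches no more than 50 kb apart gave 5462 runs, of which 3520 were a single stretch, and 228 runs of at least 5 stretches held 16.0% of all. At the same distance the share in such runs was 1.44% and 1.42% in the crossed pairs, which are sparser. With the distance scaled to their lower numbers (136 kb and 112 kb), it was 13.0% and 7.21%. The DMSO-only share in runs of at least 5 depended on the setting. It was 8.35% (crossed mean 1.47%) with peaks up to 1500 bp apart joined, 5.33% (2.35%) with DMSO lists at AC220 length, and 32.2% (20.99%) with all lists at 1 length. With a minimum length of 200 bp it was 37.9% (9.85%), and with 1000 bp it was 1.12% (0%). With only peaks of -log10 q of at least 2 it was 1.19% (0%). The crossed means in these settings are for the unscaled 50 kb distance.

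The run with the most bases in stretches lay in 10q26.12 (chromosome 10, 122132769 to 122436578), with 15 stretches over 304 kb. Over the run DMSO 1 covered 54.2%, AC220 1 28.7%, DMSO 2 87.1% and AC220 2 68.6%, so both AC220 lists were sparser than their DMSO lists over the whole interval. A run of 13 in 2q33.3 (chromosome 2, 205932957 to 206232269) had a covered share of 22.7% in DMSO 1, 11.2% in AC220 1, 63.6% in DMSO 2 and 37.9% in AC220 2. In 1q41 a run of 12 (chromosome 1, 220578526 to 220792526) had shares of 37.2%, 21.9%, 71.7% and 58.1% in that order. In 8q13.3 a run of 13 (chromosome 8, 73427010 to 73730662) had shares of 25.6%, 13.7%, 66.6% and 45.8%. In 12q24.21 a run of 11 (chromosome 12, 115739500 to 115911258), 9 of them isolated, had shares of 22.3%, 7.30%, 66.4% and 38.8%. Within these 5 runs, which were chosen for their DMSO-only bases, there were 0 AC220-only stretches and 0 to 3 of each crossed pair. The stretches took 4.06% to 7.07% of the runs, less than the difference in covered share, in percentage points, between DMSO and AC220 of either number.

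**Figure D5:**
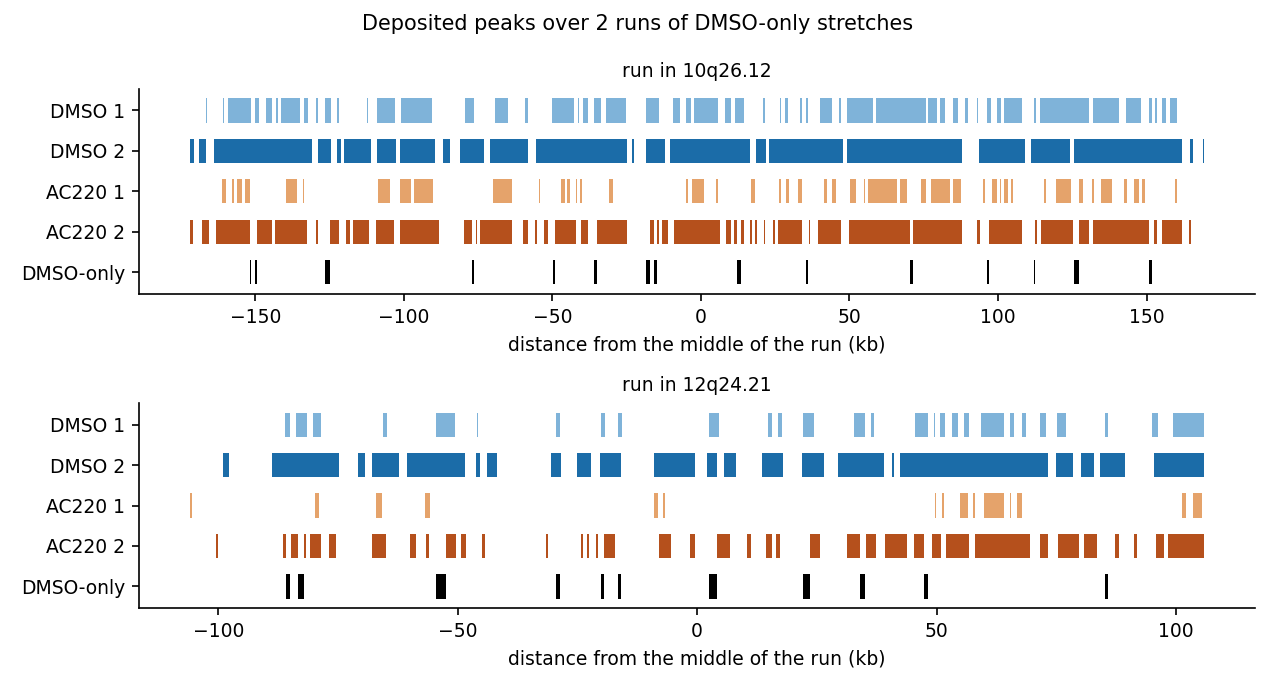
Deposited peaks of the 4 libraries (coloured bars) and DMSO-only stretches (black bars) over the runs in 10q26.12 and 12q24.21, against distance from the middle of the run in kb. The 15 and 11 stretches are scattered through intervals in which each AC220 list covers less than the DMSO list of the same number (28.7% against 54.2% and 68.6% against 87.1% in 10q26.12).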

How the data were processed

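H3K27me3 peaks of 4 MOLM14 libraries were used, with treatment and number taken from the sample titles. Per the submitters' processing notes, the tools included MACS2 2.1 and BWA 0.7.10-r789. The deposited lists give 1 set of broad peaks per library, so peaks were called per library. The fold of each deposited peak is a ratio to background within that library, and its p-value and q-value are deposited as -log10. The deposited score is a whole number and was not used. The authors' lists reach down to a q of about 0.1. Positions are printed counting from 1. No source used here names the build. Every peak end lay within the GRCh37 chromosome lengths (chromosome 1: 249250621), and bands and stains of that build came from the table shipped with the R package circlize.

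Constant-pattern stretches were computed in Python 3.11.15 (pandas 2.3.3, numpy 2.4.6), checked against a base-by-base count and on simulated lists, and figures drawn with matplotlib 3.10.9. No test was made, since the members were chosen on the contrast itself. The members, lists and bands were chosen with earlier results of these data known. Stretches named are the 10 longest, the 3 longest of each class and of each crossed pair, those nearest to 500 bp, and the 5 runs with the most bases. Bands, stains and trimmed places were chosen after the values were seen. No genome or annotation of this build was used, so planned results on genes, sequences and base composition were not run.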

Additional observations from a re-analysis of the deposited data

How the results depend on the processing

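The number of DMSO-only stretches (9284) was 17717 with a minimum length of 200 bp, 2404 with 1000 bp, 1508 and 98 with peaks of -log10 q of at least 2 and 3, 4449 with each DMSO list at its AC220 length and 5258 with all lists at 1 length. Leaving out 1 library gave 10869 to 104963. Their length (8.06 Mb) was 3.07 Mb at 1000 bp, 2.06 and 0.151 Mb at the q limits, 4.01 Mb with DMSO lists at AC220 length, 5.07 Mb with the excluded peaks extended by 200 bp, and 9.69 to 140 Mb without 1 library. The ratio to the crossed pairs (2.45) was 2.04 at 200 bp, 3.33 at 1000 bp, 3.11 and 1.83 at the q limits, 1.29 and 1.14 under the trimmings, 2.59 with extended peaks and 2.08 with peaks up to 1500 bp apart joined. This ratio to the mean of both crossed pairs was above 1 in all of these, but with all lists at 1 length the 5258 DMSO-only stretches were fewer than the 5311 of DMSO 1 with AC220 2. No ratio can be given without 1 library, since a crossed pair then has 1 member. Joining peaks up to 500 bp apart changed nothing, as no list has peaks that close.

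Edge, gap and isolated shares (40.2%, 19.4% and 40.5%) moved with many settings. They were 34.1%, 7.44% and 58.5% with a class distance of 2 kb, 38.6%, 33.8% and 27.5% with 10 kb, and 34.5%, 11.3% and 54.2% with core intervals of at least 500 bp only. At the q limits they were 17.0%, 2.65% and 80.3%, then 25.5%, 8.16% and 66.3%. Under the trimmings they were 46.7%, 24.0% and 29.2%, then 26.7%, 4.91% and 68.4%. At 1000 bp they were 38.5%, 23.3% and 38.1%. At 200 bp gaps were 17.2% and isolated 42.3%, with extended peaks edges were 38.3% and isolated 41.7%, and with peaks up to 1500 bp apart joined gaps were 13.0% and isolated 47.6%. Without 1 library, edges were 34.4% to 40.8%, gaps 16.4% to 48.2% and isolated 11.0% to 48.6%. Fewer libraries leave more core by construction. The other causes were not tested. No paired analysis was possible because the results come from no test, and a base in both DMSO and neither AC220 list is DMSO-only within each number by the rule. Depth is unknown, so no detection limit is given. The last joining distance was chosen after seeing the data.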
